A study of Mus musculus with 50 samples.

Results

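Dissected hippocampi of 8-week-old mice differed widely in the signal of Ttr, the gene of transthyretin. The 25 hippocampus arrays of a mouse brain series of 50 arrays were ranked by this signal, taken from the Ttr probe set of highest mean. The 8 highest were compared with the 8 lowest, with genotype as a term in the model. These 16 arrays were chosen by their Ttr signal, and the other 9 hippocampus arrays and the 25 neocortex arrays were kept apart. The groups were made from a measured value, so Ttr itself is a description here, carries no test and was left out of all results. What was tested is which other transcripts went with it.

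The series compared Wild-type mice with mice labelled S1P2-KO or S1P3-KO, each lacking 1 of the cell surface receptors of sphingosine 1-phosphate, a lipid signal. The S1P2-deficient mice have sporadic seizures between weeks 4 and 7, and the S1P3-deficient mice do not. The hippocampus arrays came from 10 Wild-type, 10 S1P2-KO and 5 S1P3-KO mice, each array holding 1 labelled biological replicate. The high group held 3 Wild-type, 4 S1P2-KO and 1 S1P3-KO arrays, and the low group held 3 Wild-type, 3 S1P2-KO and 2 S1P3-KO arrays. The sources used here do not describe the alleles, the strain background or the dissection, and the design text names the S1P2-deficient mice 2 times with group sizes of 10, 5 and 10, which leaves unclear which knockout had 5 mice. The sample titles were followed.

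Transthyretin is a carrier of thyroid hormone and retinol-binding protein. In the brain it is made by the epithelium of the choroid plexus, a folded, vascular tissue in the ventricles that secretes cerebrospinal fluid and moves ions, vitamins and hormones between blood and fluid. The choroid plexus of the lateral ventricle hangs beside the fimbria of the hippocampus, so a dissected hippocampus can carry pieces of it. In tissue extracts like these, fewer cells of a type and less RNA per cell cannot be told apart.

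Ttr signals ran from 27.3 in Wild-type replicate 7 to 33070.8 in Wild-type replicate 2. In the high group the lowest signal was 8491.5, the median 16962 and the highest 33070.8, and in the low group they were 27.3, 186 and 308.8. The last array inside the high group (S1P2-KO replicate 3, 8491.5) lay close to the first outside it (S1P2-KO replicate 8, 8254), so that border has no gap. At the lower border the last array inside stood at 308.8 (Wild-type replicate 9) and the first outside at 424.8 (Wild-type replicate 10). The 9 arrays between the groups covered 424.8 to 8254, and among all 25 arrays no signal fell between 735.2 and 3906.8, with 12 arrays below and 13 above. Median signals were 2321 in Wild-type, 7536 in S1P2-KO and 452 in S1P3-KO, and the lowest and highest arrays of each genotype lay on different sides of the gap.

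**Figure D1:**
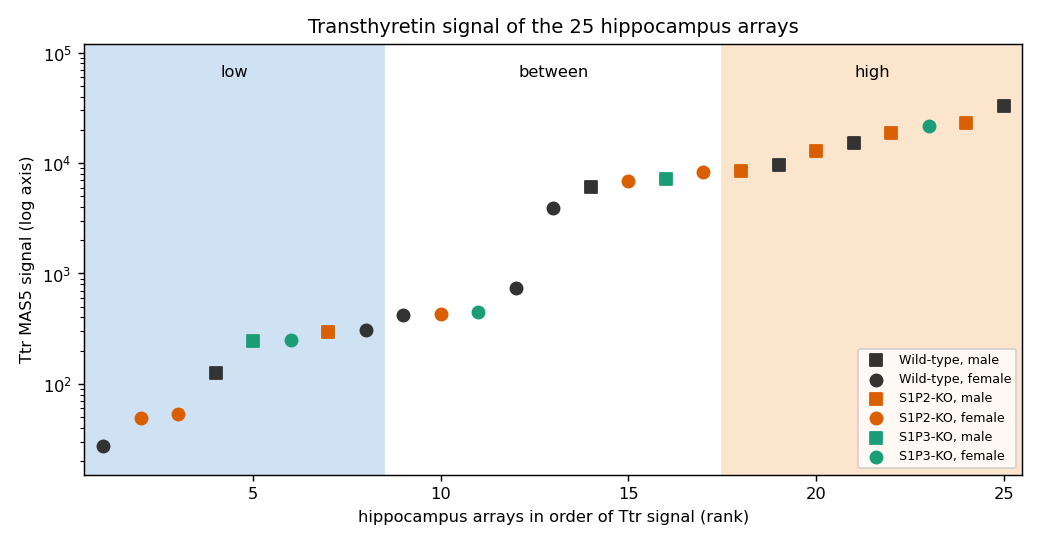
MAS5 signal of Ttr on a log axis for the 25 hippocampus arrays in rank order, with colour for genotype and shape for sex; shading marks the 8 low and the 8 high arrays. The low arrays lie at 27.3 to 308.8 and the high arrays at 8491.5 to 33070.8, and most squares (males) lie on the right.

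The groups also differed in sex. Of the high arrays 7 were from males and 1 from a female, against 3 males and 5 females among the low arrays, and the median Ttr signal over the hippocampus was 9034 in 12 males and 433 in 13 females. All high arrays carried replicate numbers 1 to 4, as did 2 of the low arrays, both S1P3-KO. In Wild-type and S1P2-KO every high array carried a number from 1 to 4 and every low array one from 5 to 9. Within these genotypes the comparison therefore cannot be told apart from one of replicate numbers. The males hold the lower numbers there, so sex and replicate number largely run together. The male replicates 5 were in the low group (Wild-type 124.3, S1P2-KO 294.8), so a term for sex does not cover replicate number. Sex was added as a covariate in a second fit. The log2 ratio of 3' to 5' control signals, a measure of RNA integrity in which low is intact, had medians of 0.39 in the high and 0.38 in the low group and exceeded 1 on 1 array of each (Wild-type replicate 4, high, 1.2; S1P2-KO replicate 7, low, 1.37). Another array above 1, S1P3-KO replicate 5 at 4.46, lay between the groups and stood apart from the others, with a median correlation of 0.85 to them. Neither receptor gene fully separated its knockout from Wild-type on these arrays. The S1pr2 signal was 340.5 to 834.5 in S1P2-KO (median 478) against 373.9 to 962.2 in Wild-type (median 650). The S1pr3 signal was 451.4 to 551.9 in S1P3-KO (median 481) against 470.3 to 1129 in Wild-type (median 860). All S1pr3 signals in S1P3-KO lay below those in S1P2-KO (637.4 to 1414). Whether these probes lie in the deleted part is not given in the sources used here, so genotype rests on the labels.

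Few transcripts went with Ttr, and many of those that did belong to the choroid plexus. At an adjusted p under 0.05 (limma with Benjamini-Hochberg adjustment), 29 of 8533 probe sets were called higher in the high arrays (0.34% of those tested) and 2 were called lower (0.0234%), while 616 had an unadjusted p under 0.05. Of the 29, 21 carry 1 gene symbol, and 15 of these genes stand in a list of choroid plexus genes. With sex as a covariate 16 probe sets were called higher, 15 of them shared with the first fit, and 8 were list genes. The median of the 29 was 0.957 without and 0.939 with sex, and that of the choroid plexus list genes 0.628 and 0.61. Single estimates moved both ways, among them Igf2 from 1.15 to 0.96 and Abca4 from 1.72 to 1.995. Leaving out S1P3-KO replicate 3, the only female and the only S1P3-KO array in the high group, reduced the calls to 12 probe sets and 9 list genes, and leaving out S1P2-KO replicate 2 reduced them to 19 probe sets. When the 2 arrays with an integrity ratio above 1 were left out, 33 probe sets were called higher, 3 lower and 16 list genes higher. Among the males alone, 7 high against 3 low, 3 probe sets were called higher, and no fit within females was run, since it would set 1 array against 5.

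The choroid plexus lists held 75 genes besides Ttr. A probe set of their own name was present for 49, and 39 passed the filter on low signals, 34 of them also by their low arrays alone. Of these 39, 15 were called higher and 0 lower by limma, 24 had an unadjusted p under 0.05 in either direction, and 35 had an estimate above 0, against 51.7% of all probe sets. Calml4, Rdh5, Col8a1 and Krt8, which are among the 15, passed the filter only through arrays outside the low group, where they are brighter, so a difference was built into their selection. Among the 34 genes that passed by their low arrays, 11 were called higher, and 25 of all 8312 such probe sets were (0.301%). On the log2(signal + 30.7) scale the median difference was 0.57 over these 34 genes and 0.63 over all 39. It was 0.00 over all 6349 genes tested, of which 20 were called higher (0.315%). The lists were drawn up with earlier results of these data known, so their direction is not independent evidence. Of the defining epithelial markers, Kl, Folr1 and Aqp1 had probe sets of their own name, and those of Clic6, Kcnj13, Otx2, Prlr and Enpp2 were not identified by name here.

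**Figure D2:**
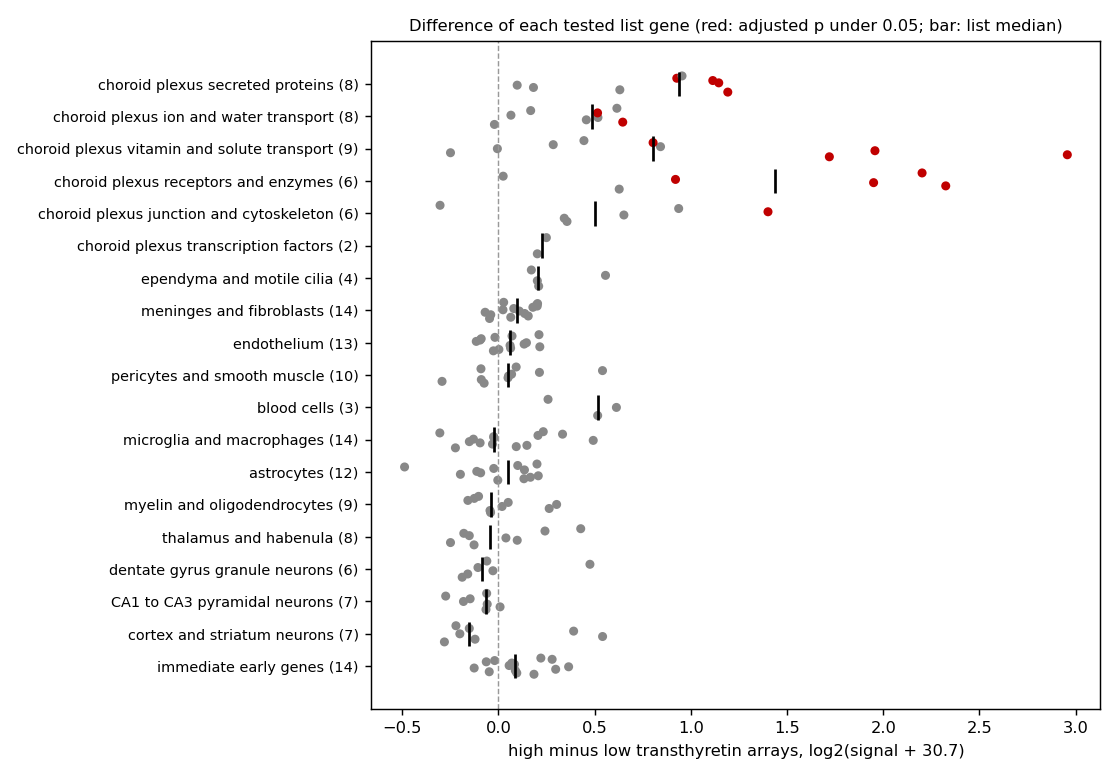
Difference between high and low Ttr arrays on the log2(signal + 30.7) scale for each tested gene of 19 lists; each point is a gene, red points have an adjusted p under 0.05, bars are list medians, and the number of tested genes stands in brackets. All red points lie in choroid plexus lists, between 0.50 and 2.96, and the medians of most other lists lie near 0.

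Among carriers and enzymes of vitamin handling, Folr1 had the largest difference of all named genes tested. Folr1, the folate receptor that takes folate into the fluid, had signals of 771 at the lowest, 1303 at the median and 2097 at the highest among the high arrays, and of 60.1, 182 and 233 among the low arrays. The groups did not overlap. Its difference was 2.96 ± 0.28 (log2, SE), or 7.77-fold, with an adjusted p of 2.19e-05 from limma (1.11e-04 with sex). Rdh5, a retinol dehydrogenase of the visual cycle, had signals of 339, 523 and 813 in the high and of 93.8, 108 and 199 in the low arrays, again without overlap. The difference was 1.96 ± 0.20 (limma adjusted p = 4.06e-05), and 2.10 with sex. Abca4, a retinoid-transporting ABC protein, had signals of 414, 581 and 800 against 66.3, 151 and 312. It also separated the groups, with a difference of 1.72 ± 0.21 (limma adjusted p = 3.32e-04), and 1.995 with sex. Its estimate in males alone was 2.26 and that of Folr1 2.37, and these were the 2 genes of the named set that remained called there.

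Slc31a1, a copper importer, was 0.80 ± 0.15 higher with 7 of 8 high arrays above every low array (limma adjusted p = 0.0203). With sex the difference was 0.87 (adjusted p = 0.0555). Its other probe set differed by 0.61 and was not called (adjusted p = 0.111). The remaining 5 tested genes of this role did not pass. Slc16a8, a lactate transporter, differed by 0.84 ± 0.25 (adjusted p = 0.34), Stra6, the receptor of retinol-binding protein, by 0.44 ± 0.37, and Lrp2, the endocytic receptor megalin, by -0.25 ± 0.23. In all, 4 of 9 genes were called, with a median of 0.80. Of these, Rdh5 passed the filter only through arrays outside the low group.

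Among receptors, enzymes and matrix proteins 4 of 6 tested genes were called, with a median of 1.44. Of these, Calml4 and Col8a1 passed the filter only through arrays outside the low group, neocortex included, so their selection favoured a dimmer low group. Calml4, a calmodulin-like protein of epithelial brush borders, had signals of 430, 762 and 985 in the high and 27.4, 141 and 201 in the low arrays. No low array reached the lowest high array, and the difference was 2.33 ± 0.27 (limma adjusted p = 1.48e-04). Kl encodes Klotho, the co-receptor for the hormone FGF23. Its signals were 677, 1292 and 1899 against 172, 213 and 393, a difference of 2.20 ± 0.24 without overlap (limma adjusted p = 8.15e-05). Both remained called with sex as a covariate (adjusted p = 0.00104 for either).

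Both tested collagen genes of this role were called. Col8a1, a short-chain collagen of basement membranes, had signals of 101, 439 and 790 in the high and 24.8, 90.5 and 159 in the low arrays. The lowest high array lay within the low range. Its difference was 1.95 ± 0.35 (limma adjusted p = 0.0162) and was not called with sex (1.70, adjusted p = 0.147). Col9a3, a chain of collagen IX, separated the groups with signals of 1259, 1752 and 2581 against 699, 983 and 1160 and a difference of 0.92 ± 0.13 (limma adjusted p = 0.00256), and 0.94 with sex (adjusted p = 0.0138). Ace, the angiotensin-converting enzyme, differed by 0.63 ± 0.26 (adjusted p = 0.584), and Ghr, the growth hormone receptor, by 0.02 ± 0.18.

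**Figure D3:**
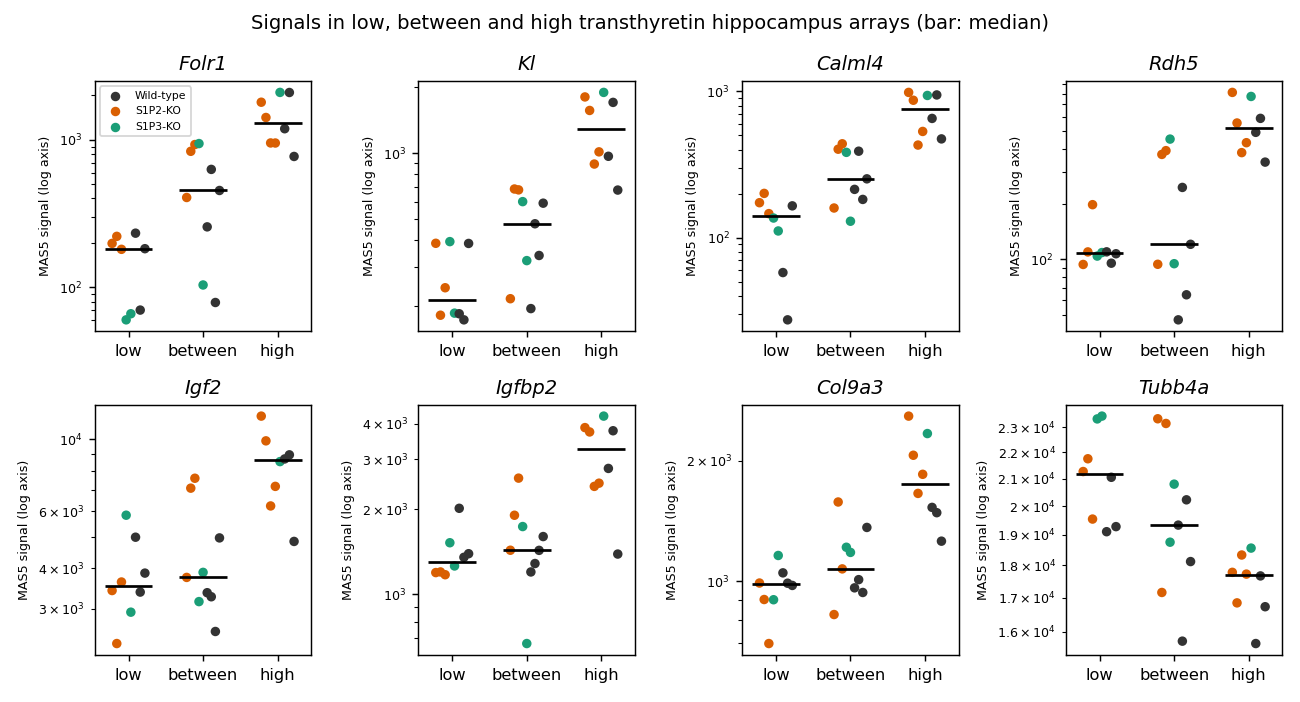
MAS5 signals on log axes of 8 genes in the 8 low, 9 between and 8 high Ttr arrays; each point is an array coloured by genotype and bars are medians. Folr1, Kl, Calml4, Rdh5 and Col9a3 do not overlap between low and high, Igf2 and Igfbp2 overlap through 1 high array, and Tubb4a runs the other way.

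The stretches of genome just upstream of some of these genes are shown because the genes went together across arrays; each covers 200 bases before the annotated start, taken from RefSeq on build GRCm38.p6 and printed 5' to 3' on the strand of the gene. Capitals mark TAATCC or its reverse complement GGATTA, the letters that OTX homeodomain proteins are known to bind. The windows are chr5:150952407-150952606 (plus strand) for Kl, chr9:62857904-62858103 (plus strand) for Calml4, chr10:128919298-128919497 (minus strand) for Rdh5 and chr3:122044260-122044459 (plus strand) for Abca4.
Kl: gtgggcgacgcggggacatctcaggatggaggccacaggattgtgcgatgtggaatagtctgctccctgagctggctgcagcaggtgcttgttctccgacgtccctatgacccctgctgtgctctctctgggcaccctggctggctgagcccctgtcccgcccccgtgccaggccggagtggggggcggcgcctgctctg
Calml4: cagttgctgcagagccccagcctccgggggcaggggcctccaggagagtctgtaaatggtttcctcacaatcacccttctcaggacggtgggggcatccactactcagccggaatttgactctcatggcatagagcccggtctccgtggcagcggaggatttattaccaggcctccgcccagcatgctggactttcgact
Rdh5: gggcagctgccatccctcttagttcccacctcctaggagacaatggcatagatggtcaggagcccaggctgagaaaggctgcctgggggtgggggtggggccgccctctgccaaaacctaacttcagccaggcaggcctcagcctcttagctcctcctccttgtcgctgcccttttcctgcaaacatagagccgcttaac
Abca4: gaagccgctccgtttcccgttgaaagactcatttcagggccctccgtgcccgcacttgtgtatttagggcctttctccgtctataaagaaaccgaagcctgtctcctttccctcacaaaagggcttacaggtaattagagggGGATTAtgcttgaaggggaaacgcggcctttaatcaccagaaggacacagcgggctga
Of these windows that of Abca4 holds the letters, at position -58 from the start. Over all genes called higher, 15 of the 21 with 1 symbol gave windows, and 1 of their 21 windows (4.76%) holds the letters. Of all 32851 windows of the same length 1614 do (4.91%). Windows on 1 chromosome were left out for the called genes and kept among all windows, so these shares follow unlike rules. A window without a match says only that these letters are not in it.

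Secreted proteins gave 4 calls among 8 tested genes, with a median of 0.94 and all 8 estimates above 0. A2m, a protease inhibitor of plasma and fluid, had signals of 326, 425 and 465 in the high and 79.3, 178 and 246 in the low arrays. These did not overlap, and the difference was 1.19 ± 0.19 (limma adjusted p = 0.00489, and 0.0415 with sex). Igf2, the insulin-like growth factor that choroid plexus and meninges secrete, had signals of 4844, 8617 and 11790 against 2348, 3526 and 5835. Only its lowest high array, Wild-type replicate 4, fell into the low range, and the difference was 1.15 ± 0.19 (limma adjusted p = 0.00687). Igfbp2, a binding protein of such factors, had signals of 1387, 3267 and 4264 against 1172, 1305 and 2013. Again 7 of 8 high arrays lay above every low array, and the difference was 1.11 ± 0.19 (limma adjusted p = 0.0106). Wild-type replicate 4 was the lowest high array for Igf2, Igfbp2 and Col8a1 alike. With sex as a covariate the differences were 0.96 for Igf2 and 1.09 for Igfbp2, and neither was called (adjusted p = 0.0655 for both).

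Lbp, the binding protein of bacterial lipopolysaccharide, separated the groups at 570 to 1281 against 252 to 554, with a difference of 0.93 ± 0.17 (limma adjusted p = 0.0162). The difference was also 0.93 with sex, where it was not called (adjusted p = 0.0769). Mia, which encodes a small secreted protein of cartilage and melanoma, differed by 0.95 ± 0.21 and did not pass (adjusted p = 0.075). Of the growth factors, Bmp6 differed by 0.63 ± 0.35 and Bmp7 by 0.18 ± 0.29, and Cp, the copper-carrying ceruloplasmin, differed by 0.10 ± 0.36. None of these passed.

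Ion and water transport showed smaller differences, with 2 of 8 tested genes called and a median of 0.49. Fxyd1, a regulator of the sodium pump, had signals of 3140, 4019 and 4654 in the high and 2118, 2828 and 2987 in the low arrays. These did not overlap, and the difference was 0.52 ± 0.10 (limma adjusted p = 0.0207, and 0.00717 with sex). Cab39l, a scaffold of kinases that act on cotransporters, had signals of 810, 1211 and 1389 against 572, 714 and 1001, a difference of 0.65 ± 0.11 (limma adjusted p = 0.00787). With sex it was 0.61 (adjusted p = 0.0655). Slc4a2, an anion exchanger, differed by 0.62 ± 0.13 (adjusted p = 0.0638), Car14 by 0.52 ± 0.18 and Car12, another carbonic anhydrase, by 0.46 ± 0.12, and none of these passed. Car2, which oligodendrocytes also express, and Slc12a2, the sodium-potassium-chloride cotransporter, differed by 0.06 ± 0.08 and 0.17 ± 0.20.

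Aqp1, the water channel of the apical membrane and one of the defining markers, was not called. Its probe set had signals of 59.5, 197 and 245 in the high and 97.8, 171 and 321 in the low arrays. The ranges lay over each other, and the difference was -0.02 ± 0.27 (limma adjusted p = 0.994). Over the 9 arrays between the groups its slope per log2 unit of Ttr was 0.28 ± 0.13 (adjusted p = 0.99). This probe set lay close to the filter on low signals, which stood at 132.6.

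Of the 6 tested genes of junctions and cytoskeleton, Krt8, a keratin of simple epithelia, was called. It passed the filter only through arrays outside the low group. Its signals were 120, 283 and 700 in the high and 78.1, 99.0 and 157 in the low arrays, with the lowest high array inside the low range and a difference of 1.40 ± 0.28 (limma adjusted p = 0.035). With sex it was 1.54 (adjusted p = 0.0745), and leaving out 1 array at a time ended the call in 12 of 16 cases. Its partner Krt18 differed by 0.65 ± 0.23 (adjusted p = 0.504), Perp, a protein of desmosomes, by 0.94 ± 0.22 (adjusted p = 0.103) and Cldn3, a tight junction claudin, by 0.36 ± 0.23. Ezr differed by 0.34 ± 0.11 and Vim by -0.30 ± 0.36, and neither passed. The median of the 6 genes was 0.50, with 5 estimates above 0. The 2 tested transcription factors were Msx1, at 0.25 ± 0.21, and Foxj1, the regulator of motile cilia, at 0.20 ± 0.17, and neither passed (adjusted p = 0.831 for both).

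The 10 list genes below the filter were left out of the counts above. When all probe sets were tested without a filter, F5, which encodes coagulation factor V, and Slc4a5, a sodium-bicarbonate cotransporter, were called. F5 had signals of 228, 324 and 665 in the high and 10.1, 22.8 and 70.6 in the low arrays, a difference of 2.77 ± 0.28 (limma adjusted p = 4.32e-05). Slc4a5 had signals of 131, 260 and 432 against 8.4, 15.3 and 48.1, a difference of 2.57 ± 0.23 (limma adjusted p = 1.41e-05). Neither gene overlapped between the groups, and the low signals are of the size of the pseudocount, so these differences are understated on this scale. Wfdc2, a secreted protease inhibitor, differed by 1.67 ± 0.43 (adjusted p = 0.205), and Cldn2, the claudin of leaky epithelia, by 0.66 ± 0.22 (adjusted p = 0.473). Lepr, the leptin receptor, had medians of 39.4 in the high and 107 in the low arrays and did not pass (-0.80 ± 0.28, adjusted p = 0.496).

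Genes outside the choroid plexus lists were called as well. Pcolce, an enhancer of procollagen processing, separated the groups at 601 to 1229 against 294 to 564 and differed by 0.96 ± 0.16 (limma adjusted p = 0.00687). Acaa2, an enzyme of mitochondrial fatty acid oxidation, differed by 0.64 ± 0.13 (adjusted p = 0.0468). Gadd45g, a stress-inducible protein of growth arrest, had signals of 917 to 1570 against 525 to 913 and differed by 0.63 ± 0.10 (limma adjusted p = 0.00687). Lgals1, a galactose-binding lectin, differed by 0.50 ± 0.11 and Vamp8, an endosomal SNARE protein, by 0.49 ± 0.10 (adjusted p = 0.0468 and 0.0394). The second probe set of Vamp8 differed by 0.57 ± 0.22 and was not called. Dab2, an endocytic adaptor, was called by 1 of 3 probe sets (0.78 ± 0.15, adjusted p = 0.0258), while its other probe sets differed by 0.22 and -0.16. Of these genes Acaa2, Gadd45g and Vamp8 remained called with sex as a covariate. Leaving out 1 array at a time ended the call of Acaa2 in 13, of Vamp8 in 12 and of Lgals1 in 12 of 16 cases, and Acaa2 was not called with log2 Ttr as a continuous term over 25 arrays (adjusted p = 0.136).

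The smallest p belonged to the probe set 97317_at, which has no gene symbol in the annotation used here. Its signals were 15280, 22720 and 31980 in the high and 3008, 3859 and 5396 in the low arrays. The groups lay far apart, with a difference of 2.49 ± 0.16 (limma adjusted p = 7.45e-08), and 2.48 with sex. A second unnamed probe set, 95030_at, had signals of 357, 927 and 1277 against 62.3, 217 and 390 and a difference of 1.88 ± 0.28 (adjusted p = 0.00269), and 2.19 with sex.

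Both probe sets called lower differed by less than 1 log2 unit. Tubb4a, a beta tubulin of neurons and oligodendrocytes, had signals of 15670, 17700 and 18560 in the high and 19110, 21160 and 23460 in the low arrays. Every low array lay above every high array, and the difference was -0.26 ± 0.05 (limma adjusted p = 0.0247). Hdgf, the hepatoma-derived growth factor, was called lower by 1 probe set (-0.56 ± 0.11, adjusted p = 0.0258), while its other one differed by -0.20 ± 0.15. With sex as a covariate neither was called (adjusted p = 0.0959 and 0.129).

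Of the 29 probe sets called higher, 16 did not overlap between the groups, where 19 of all 8533 did so (0.223%). In 25 the mean of the low arrays passed the filter by itself, and the other 4 passed it only through arrays outside the low group. In 26 the median of the 9 arrays between lay within the medians of the groups. These probe sets were picked for a difference between the groups, and the share over all probe sets was not counted.

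The 13 other lists cover other cells of a dissection, neurons of the hippocampus and other regions, and 14 tested immediate early genes. None of them gave a call by limma. Of their 121 tested entries 11 (9.09%) had an unadjusted p under 0.05, beside 7.22% of all probe sets. Tac1 was entered both among cortex and striatum neurons and among thalamus and habenula. With 0.34% of all probe sets called higher, a list of this size need not hold a call. The ependyma, the ciliated lining of the ventricles, had 4 tested genes with all 4 estimates above 0 and a median of 0.21 (0.14 with sex), with the largest in Rarres2, which encodes the chemoattractant chemerin (0.56 ± 0.21, adjusted p = 0.532). Foxj1 stands in this list and in that of choroid plexus transcription factors. The summed signal of the ependyma genes was 3068 to 4547 in the high and 2651 to 3533 in the low arrays, and their part in the result was not tested. The 14 genes of meninges and fibroblasts had a median of 0.09 and summed signals of 34913 to 54687 against 30603 to 52033. Ptgds, the prostaglandin D synthase that both meninges and choroid plexus express, differed by 0.20 ± 0.12 (adjusted p = 0.754).

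Blood had the largest median among these lists, at 0.52 over 3 genes, all above 0 (0.32 with sex). Hba-a1, the alpha globin of red cells, had signals of 9129, 13070 and 19880 in the high and 4154, 8584 and 14320 in the low arrays. The ranges overlapped and the difference did not pass (0.61 ± 0.23, adjusted p = 0.53; 0.32 with sex). Within genotypes its slope per log2 unit of Ttr was called in S1P2-KO (0.19 ± 0.03, adjusted p = 0.0109) and was -0.0014 ± 0.028 in Wild-type (adjusted p = 0.996), and the difference of these slopes did not pass (adjusted p = 0.352). The summed signal of the blood genes was 9595 to 20319 against 4360 to 14562, and its part in the result was not tested. Endothelium (13 genes, median 0.06), pericytes and smooth muscle (10 genes, 0.05), microglia and macrophages (14 genes, -0.02), astrocytes (12 genes, 0.05) and oligodendrocytes (9 genes, -0.04) had medians near 0. The smallest p among their members was that of S100b, a calcium-binding protein of astrocytes, at -0.49 ± 0.16 (adjusted p = 0.446).

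Neuronal markers of the hippocampus had medians just below 0. Of 6 genes of dentate granule neurons 1 had an estimate above 0 and the median was -0.08, with Calb1, the calcium buffer calbindin, at -0.19 ± 0.08 (adjusted p = 0.584). The 7 genes of CA1 to CA3 pyramidal neurons had 1 estimate above 0 and a median of -0.07, with Spock1, a proteoglycan, at -0.27 ± 0.19. The 7 genes of cortex and striatum neurons had a median of -0.15 and the 8 genes of thalamus and habenula one of -0.04. The 14 immediate early genes, which neuronal activity induces, had a median of 0.09, and Nr4a2 differed by 0.22 ± 0.16 (adjusted p = 0.794). No listed gene had a deposited signal of 0 on any of the 16 arrays. The Y-linked Eif2s3y and the X-inactivation transcript Xist differed by 1.64 ± 0.64 and -1.003 ± 0.55, and by 0.19 and -0.13 once sex was in the model.

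The 9 arrays between the groups were not in the high against low fit, and they allow a look at the same relation. They did count in the filter, which used the mean over 50 arrays. Of these 9 arrays 2 were from males, with Ttr signals of 7107.3 and 6083.8, and the slopes carry no term for sex. Their slope on the log2 Ttr signal was above 0 for 26 of the 29 probe sets called higher, beside 52.7% of all probe sets, and the median slope was 0.11 against 0.00. Under an unadjusted p of 0.05 with a positive slope were 9 of the 29, beside 167 of all 8533 (1.96%). After adjustment over all probe sets 1 was called (0.0117%), and this was 97317_at. The slope per log2 unit of Ttr was 0.55 ± 0.08 for Abca4, 0.47 ± 0.11 for Folr1, 0.45 ± 0.07 for Rdh5, 0.31 ± 0.06 for Kl and 0.28 ± 0.06 for Calml4, and none of these 5 passed after adjustment (limma adjusted p from 0.365 to 0.99). Of the 39 tested choroid plexus genes, 36 had a slope above 0 on these arrays, with a median of 0.13. Without S1P3-KO replicate 5, whose integrity ratio was 4.46, 28 of the 29 slopes were above 0 (50.5% of all probe sets), 13 had an unadjusted p under 0.05 (2.04%), and 37 of the 39 choroid plexus genes had a slope above 0. Among the smaller differences over the 9 arrays, the slopes of Slc31a1, Acaa2 and Dab2 were 0.02 ± 0.05, 0.03 ± 0.06 and 0.02 ± 0.06.

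**Figure D4:**
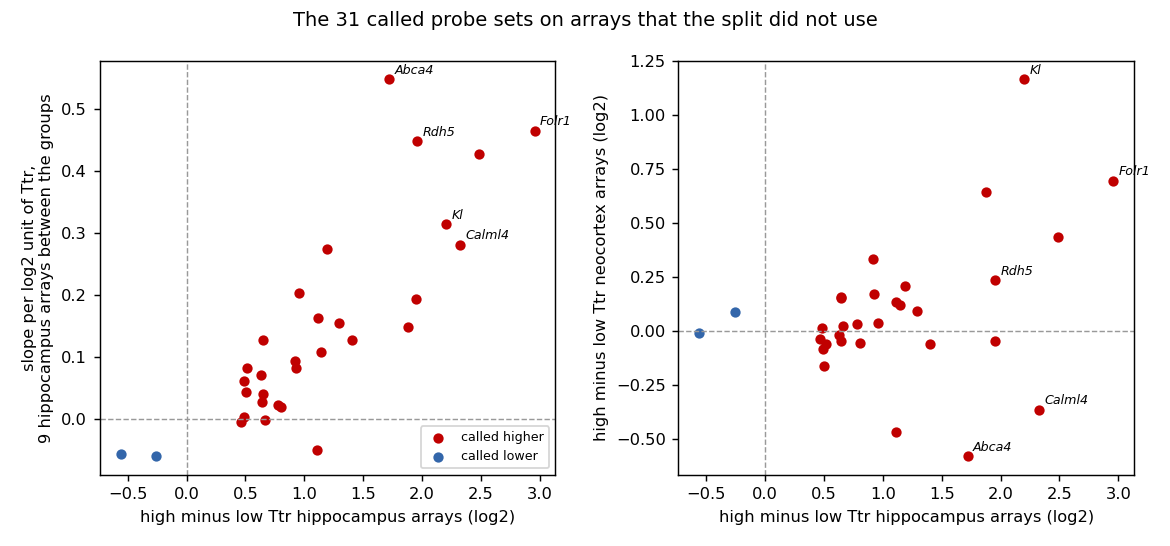
The 31 called probe sets, with their difference between high and low Ttr hippocampus arrays on the horizontal axis (log2) and, on the vertical axis, the slope on log2 Ttr over the 9 hippocampus arrays between the groups (left) or the difference between the 8 highest and 8 lowest neocortex arrays (right, log2). On the left 26 of the 29 red points lie above 0, and on the right 17 do.

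The signals of Kl and Folr1 were also set against Ttr on either side of its gap, as a description: the genes and the division were chosen after the signals had been seen, and the 8 high arrays are among the 13 above the gap, so no p is given. Over the 13 arrays above the gap the correlation of log2 signals was r = 0.925 for Kl (rho = 0.923) and r = 0.945 for Folr1 (rho = 0.901). Without the 2 arrays farthest from the median Ttr signal, r was 0.957 for Kl and 0.901 for Folr1. Over the 12 arrays below the gap it was 0.524 for Kl and 0.0363 for Folr1. There Kl lay between 172 and 393. Aqp1 gave r = -0.0102 above and -0.533 below the gap. When arrays with an integrity ratio above 1 were left out, r above the gap was 0.931 for Kl and 0.952 for Folr1 over 12 arrays.

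**Figure D5:**
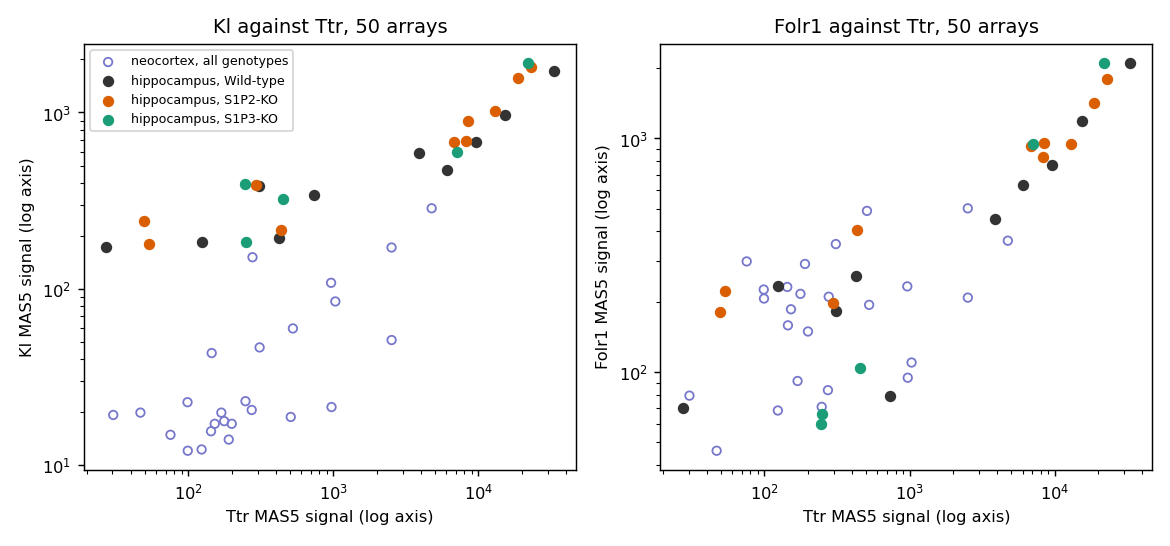
MAS5 signals of Kl (left) and Folr1 (right) against Ttr on log axes for 50 arrays; filled points are hippocampus arrays coloured by genotype and open points are neocortex arrays. In hippocampus both genes climb with Ttr from 3906.8 to 33070.8, and at Ttr signals up to 735.2 Kl lies between 172 and 393.

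Each genotype that had 10 arrays was also fitted alone, as a description. These arrays include most of those that chose the 29 probe sets, so slopes above 0 were largely built in. All 29 probe sets had a slope above 0 in both, with medians of 0.11 in Wild-type and 0.12 in S1P2-KO. Of all probe sets 51.6% had one in Wild-type and 51.8% in S1P2-KO. Over all probe sets 4 slopes were called in Wild-type, each higher (0.0469%) and each among the 29. In S1P2-KO 32 were called higher (0.375%) and 22 lower (0.258%), and 13 of the 29 probe sets were among the 32. Of the other cell type lists, Hba-a1 and the oligodendrocyte gene Qdpr, which encodes a pteridine reductase (-0.07 ± 0.01, adjusted p = 0.0394), were called in S1P2-KO. In Wild-type the slope was 0.43 ± 0.06 for Folr1, 0.31 ± 0.04 for Kl and 0.40 ± 0.04 for Calml4. In S1P2-KO the corresponding slopes were 0.34 ± 0.03, 0.32 ± 0.04 and 0.26 ± 0.04. The slopes of these genes did not differ between genotypes past the threshold (limma adjusted p of the difference 0.629, 0.94 and 0.386), and 1 of all probe sets did (0.0117%). The S1P3-KO hippocampi, 5 in number, gave 1 array to the high group (Folr1 2097, Kl 1899) and 2 to the low group (Folr1 60.1 and 66.1, Kl 393 and 185), and no slope was fitted in it.

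In neocortex Ttr ran from 30.4 to 4754.6 with a median of 199. The 8 highest arrays (508 to 4754.6) and the 8 lowest (30.4 to 145) were compared by the same rule, and the labels do not say whether the same mice gave both tissues. No probe set was called by limma in either direction, and 305 had an unadjusted p under 0.05. Of the 29 probe sets called higher in hippocampus, 17 had an estimate above 0, beside 49.7% of all probe sets, and 3 had an unadjusted p under 0.05, beside 181 of all probe sets (2.12%). Kl had a median of 72.3 in the high and 17.5 in the low neocortex arrays and a difference of 1.17 ± 0.44 (adjusted p = 1). Folr1 had medians of 220 and 182 and a difference of 0.70 ± 0.35, Calml4 and Abca4 differed by -0.36 ± 0.35 and -0.58 ± 0.37, and 97317_at differed by 0.44 ± 0.10. Of the 39 choroid plexus genes 23 had an estimate above 0 there, with a median of 0.13.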

How the data were processed

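Per the labels' protocols, TRIzol-extracted total RNA (12 µg) was made into biotinylated cRNA. The authors deposited 1 linear intensity per probe set and array, a MAS5 signal per the submitters' processing notes, for 12488 probe sets. The 2% trimmed mean was 1000.56 to 1000.66 throughout, so values were used as scaled by the authors. Median signals were 299.6 to 413.75, and precision is limited by the number of arrays.

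Values are log2(signal + 30.7), the 10th percentile of all signals, which understates differences of dim genes. Probe sets passed when their mean over 50 arrays lay above the 30th percentile (132.6). Control and Ttr probe sets were left out, which left 8533 for 6349 genes. A gene stands by its brightest probe set. Names came from the platform annotation: 10855 probe sets had 1 symbol, 396 several and 1237 none here.

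The 8 highest and 8 lowest Ttr arrays were compared with limma 3.58.1 in R 4.3.3 (lmFit, eBayes with trend, genotype as covariate, Benjamini-Hochberg, threshold 0.05). All adjusted p of single genes are from limma. On simulated data for this comparison (8533 probe sets), shifts of 0.5, 1 and 2 were recovered in 44.78%, 85.07% and 96.97% of cases, and 6.79% of calls were false.

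The members, the 19 lists and the tests were chosen with earlier results of these data known. Named are, past the threshold, up to 20 genes by size of rise and 10 by size of fall, up to 4 called members of each list, and for lists without a call the member with the smallest p. Other genes were named after their values were seen. Alternatives covered pseudocount, filter, normalization, covariates, group size, weights, the replicate block and left-out arrays. Same-numbered arrays deviated together in 4 of 10 pairs (correlations from -0.1 to 0.27), short of the rule that every pair exceed 0.1, so the numbers were not used as pairs; what they mark is not given in the sources used here.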

Additional observations from a re-analysis of the deposited data

Results flagged for a closer look

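Within the groups of 8, 3 signals lay far from the rest, among 42 sets examined, where chance flags about 5% of them. Rdh5 stood at 198.7 in the low array S1P2-KO replicate 7, well above the other low arrays. Lbp stood at 252.1 in the low array S1P3-KO replicate 4, below the other low arrays. Cab39l stood at 810.4 in the high array Wild-type replicate 4, below the other high arrays, and this array has a 3' to 5' log2 ratio of 1.2.

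Chrd, which encodes the BMP antagonist chordin, was the 1 probe set whose slope on log2 Ttr differed between genotypes after adjustment. The slope was 0.22 ± 0.03 in S1P2-KO and -0.22 ± 0.06 in Wild-type, a difference of 0.435 (limma adjusted p = 0.039), while 988 probe sets had an unadjusted p under 0.05. In the high against low comparison Chrd differed by 0.03 (adjusted p = 0.995).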

How the results depend on the processing

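Another pseudocount (5th percentile or 100), quantile normalization, no genotype term, the RNA integrity ratio (as covariate or as a limit), and 6 or 10 arrays a group gave 23 to 33 probe sets called higher, against 29. No direction of a called named gene turned under any alternative. With sex as a covariate 16 were called higher, 0 lower and 8 choroid plexus genes higher, and 11 of the 21 named genes remained called. Without a filter 1 was called lower, and with array weights 39 were called higher, 5 lower and 18 choroid plexus genes higher. Without the mean trend 24 were called higher, 0 lower and 14 choroid plexus genes higher. Leaving out 1 array at a time gave 12 to 31 called higher, 0 to 6 called lower and 9 to 17 choroid plexus genes; the lowest counts of higher calls and of choroid plexus genes came without S1P3-KO replicate 3, when 9 of 21 named genes remained. The 2 lower calls became 0 without Wild-type replicate 1, S1P2-KO replicate 5 or 6 or S1P3-KO replicate 3, and 6 without Wild-type replicate 4. Chosen after seeing the data, males alone gave 3 called higher, 0 lower and 2 choroid plexus genes, and a split of all 25 arrays at the gap gave 19 called higher. The cause of these changes was not tested, though males alone hold fewer arrays. The replicate block as a random effect (consensus correlation -0.0299) gave 29 called higher, 3 lower and 15 choroid plexus genes and changed no call of a named gene. Only the replicate numbers 2 and 4 occur in both groups, in the low group as S1P3-KO arrays. This fit therefore cannot separate replicate number from the Ttr split. In neocortex, log2 Ttr as a continuous term over 25 arrays gave 1 probe set called higher, 97317_at. MAS5 signals near the filter are noisy, which limits genes such as Aqp1.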
